A study of Homo sapiens with 6 samples.

Results

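The genes described here are the heat shock proteins and the DNAJ cochaperones, chosen by their symbols alone: HSPA, HSPB, HSPD1, HSPE1, HSPH1, HSP90AA1, HSP90AB1 and HSP90B1 together with DNAJA, DNAJB and DNAJC. The pattern found 72 of the 38637 genes in the deposited table. By textbook knowledge of where their proteins work, 47 were assigned to the cytosol and nucleus, 15 to the endoplasmic reticulum (ER) and 10 to mitochondria. RNA had been sequenced from OVCAR8, a human ovarian cancer cell line of wild type genotype, after 72 h with the solvent DMSO (3 samples) or with 2 nM pladienolide B dissolved in DMSO (3 samples). Pladienolide B binds the SF3b complex, which contains SF3B1, and inhibits pre-mRNA splicing. The line is 1 established culture, and no source used here says whether the samples of a group were grown separately, so the p-values measure only the spread between these samples.

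Heat shock proteins are chaperones that bind unfolded stretches of other proteins. HSP70 proteins work through cycles of ATP hydrolysis, which J-domain proteins of the DNAJ family start and the HSP110 proteins help to end by exchanging the nucleotide, and HSP90 proteins complete the folding of kinases and steroid receptors. In the cytosol the inducible members are switched on by the transcription factor HSF1, which binds arrays of a short unit, the heat shock element (HSE), when unfolded proteins accumulate, whereas ER members are under the unfolded protein response and the mitochondrion has a set of its own.

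The samples held 22621338 to 26130882 recovered reads on genes. Levels below are adjusted reads, the deposited values scaled by the authors to a common library size. Levels that are compared between genes are given as RPKM. It was computed here from the adjusted reads, the length of the canonical transcript and each sample's total of adjusted reads. PAX8, a Mullerian lineage factor, lay between 4011 and 4581 adjusted reads and the keratin KRT8 between 40092 and 53035, while the leukocyte gene PTPRC did not exceed 2 adjusted reads in any sample. WT1 was at 13 to 33.8 adjusted reads. Other genes looked at as markers of cells that a culture could hold were not all low. CD68 was at 1091 to 1590 adjusted reads, COL1A1 at 5602 to 6902, VIM at 60442 to 69709 and PECAM1 at 24.1 to 42.1. One library stood apart for the genes described here, DMSO replicate 2, and many results are given with and without it. Because the values of these same genes singled it out, p-values and counts of calls without it are descriptions. They are not separate support for a rise of these genes.

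The departure of DMSO replicate 2 was concentrated in cytosolic HSP70 genes. On the log2(value + 1) scale, 8 of the 62 members that could be tested were at least 0.5 higher in this sample than the mean of DMSO replicates 1 and 3, against 2.87% of the 16178 genes tested. They were HSPA1A, HSPA1B, HSPA8, HSPA1L, HSPA6, HSPA2, DNAJB1 and DNAJB7, all of the cytosolic and nuclear class. Only 2 members, HSPA12B and DNAJC28, lay at least 0.5 lower, against 4.97% of all genes, and both had fewer than 50 adjusted reads. Among the higher ones, HSPA6 (10.2 to 25.2 adjusted reads in DMSO), HSPA1L (25.2 to 63.4) and DNAJB7 (25.9 to 59.4) also had few. Among the 5593 genes with a mean of at least 1000 adjusted reads, where counting error is small, 6 genes or 0.107% were at least 0.5 higher in DMSO replicate 2, and 4 of these were members. HSPA1A ranked 1, HSPA1B 2, HSPA8 3 and DNAJB1 5, and the other 2 were HIF1A-AS2 and HIF1A, named here after their values were seen. Each of the other 5 samples, set against the rest of its own group, had at most 2 members at least 0.5 higher. How this sample came to differ was not tested. In bulk RNA, more cells with a transcript and more of it per cell cannot be told apart.

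The departure also showed in the total output of these genes. The 72 genes took 1.26% of all reads in DMSO replicate 1, 1.5% in replicate 2 and 1.27% in replicate 3, and between 1.53% and 1.54% in the 3 pladienolide B samples. The cytosolic and nuclear members accounted for most of this, with 0.887%, 1.09% and 0.89% in DMSO replicates 1 to 3 and between 1.14% and 1.16% after pladienolide B. The ER members took 0.241% to 0.259% of the reads with DMSO and 0.227% to 0.246% after pladienolide B, so the groups overlapped there. The mitochondrial members took 0.134% to 0.149% with DMSO and 0.152% to 0.153% after pladienolide B. These shares did not overlap, but they are shares of each sample's recovered reads and not of adjusted reads. In adjusted reads HSPD1, the most abundant of them, was at 20251 in DMSO replicate 2 and at 18311 to 18569 after pladienolide B.

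**Figure D1:**
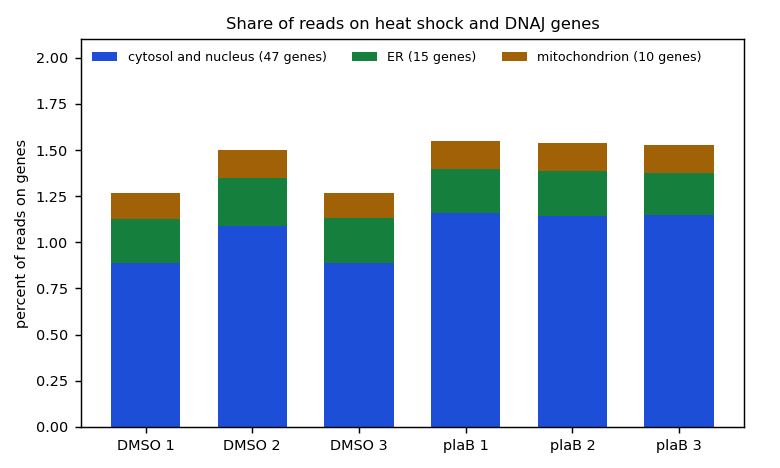
Stacked bars give, for each of the 6 samples, the percent of all reads on genes that fell on the cytosolic and nuclear, the ER and the mitochondrial members. The bars of DMSO replicates 1 and 3 end at about 1.27%, and those of DMSO replicate 2 and of the 3 pladienolide B samples at 1.5% to 1.54%.

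Of the 72 members, 62 passed the filter on low values (38 cytosolic and nuclear, 15 ER and 9 mitochondrial). With limma over all 16178 tested genes and an adjusted p below 0.05, 18 members were higher in pladienolide B, where 22.4% of all tested genes were, and 12 were lower, where 25.2% were. In all, 48.4% of the tested members were called, which is close to the 47.6% of all tested genes. No member reached a 2-fold change, and the log2 fold changes of members ran from -0.63 to 0.74 with a median of 0.09, beside a median of 0 for all tested genes. The 6 samples of a gene fell into groups that did not overlap for 36 members, or 58.1%, against 55.3% of all tested genes.

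Without DMSO replicate 2, 24 members were higher, against 23.1% of all genes, and 10 were lower, against 24.5%. Of the 30 members called with 6 samples, 26 were called again. The 8 that were called only without this sample were DNAJA1, DNAJB1, DNAJC3, DNAJC8, HSPA1A, HSPA1B, HSPD1 and HSPE1, all higher in pladienolide B. The 4 calls that were lost were those of DNAJB14, DNAJB4, DNAJC25 and HSPA12A.

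**Figure D2:**
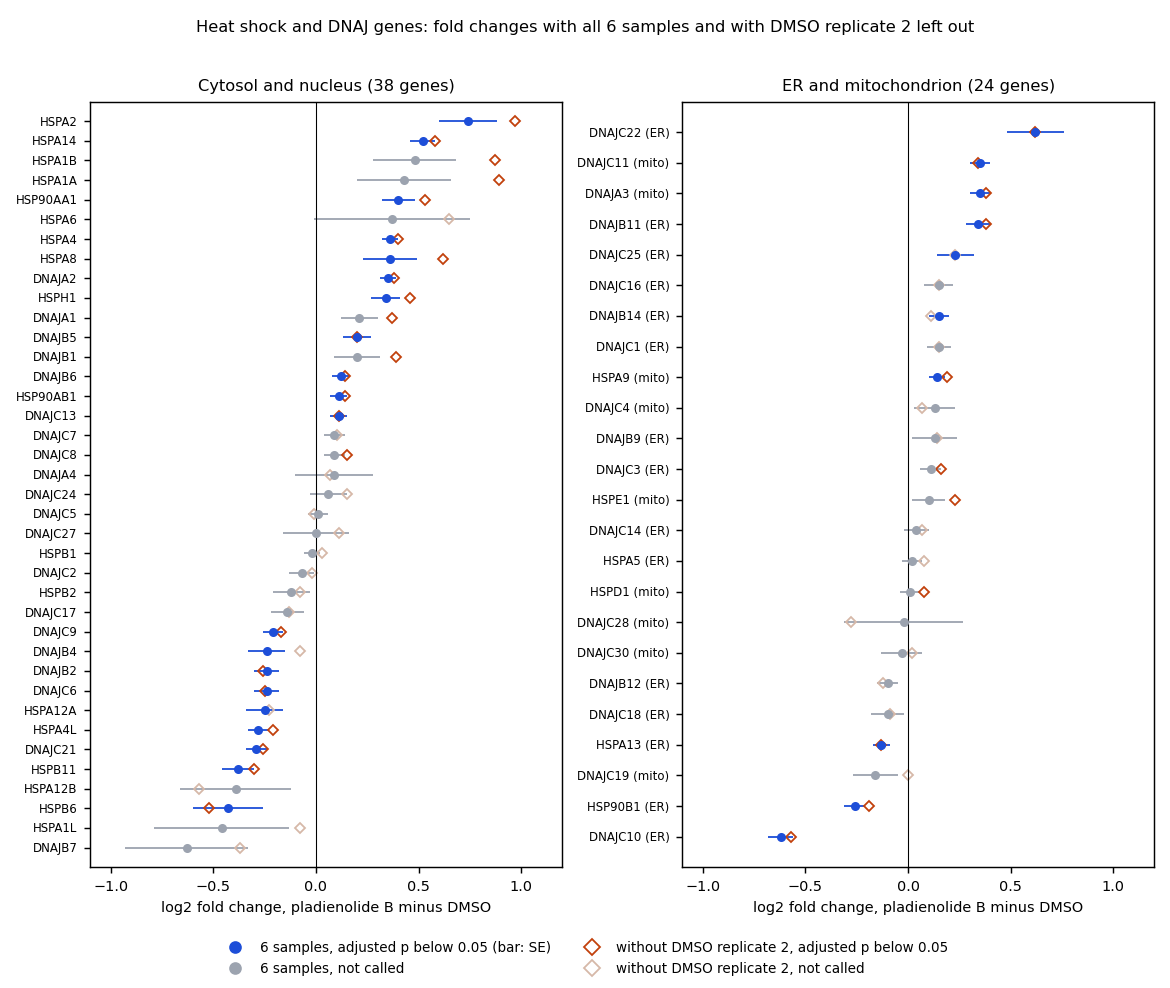
Filled points give the log2 fold change of each tested member, pladienolide B minus DMSO, from all 6 samples, with bars of 1 SE, and open diamonds the same with DMSO replicate 2 left out. HSPA1A moves from 0.43 to 0.89 and HSPA8 from 0.36 to 0.62, whereas HSPA14, DNAJC22 and DNAJC10 keep values at or beyond 0.5 in size in both.

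HSPA1A and HSPA1B, the stress-inducible pair of cytosolic HSP70 genes, read higher in pladienolide B than in DMSO replicates 1 and 3, and higher still in DMSO replicate 2. HSPA1A, the main inducible HSP70, was at 1287, 3528 and 1471 adjusted reads in DMSO replicates 1 to 3 and at 2650, 2308 and 2695 in pladienolide B. All 3 treated samples lay between the pair of low DMSO samples and DMSO replicate 2, which was 2.56 times the mean of the other DMSO samples. The log2 fold change of HSPA1A was 0.43 (SE 0.23, adjusted p = 0.13 by limma), and without DMSO replicate 2 it was 0.89 (SE 0.06, adjusted p = 5.58e-10 by limma). Since that sample was picked by the values of this gene and others like it, the smaller SE and p-value follow in part from the choice.

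HSPA1B, the neighbouring copy with nearly the same protein, read 1448, 3333 and 1512 adjusted reads in DMSO and 2708, 2619 and 2773 in pladienolide B, the same arrangement. Its log2 fold change was 0.48 (SE 0.20, adjusted p = 0.054) with all samples and 0.87 (SE 0.05, adjusted p = 5.43e-12) without DMSO replicate 2, both by limma. Of the stretches of 75 bases in the canonical transcripts, 73.8% of those of HSPA1A and 73.3% of those of HSPA1B occur in another gene, chiefly in each other, so the split of reads between them is uncertain. Their sum does not depend on that split and was 2735, 6861 and 2983 adjusted reads in DMSO and 5358, 4927 and 5468 in pladienolide B.

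HSPA8, the constitutive HSC70, was the most abundant HSP70, at 552 ± 177 (SD, n = 3) RPKM in DMSO. It was at 24440, 43117 and 25620 adjusted reads in DMSO and at 39428, 38091 and 38032 in pladienolide B, and again only DMSO replicate 2 exceeded the treated samples. The log2 fold change was 0.36 (SE 0.13, adjusted p = 0.0346 by limma) with all samples and 0.62 (SE 0.03, adjusted p = 1.75e-12 by limma) without DMSO replicate 2. The call from all samples was lost under 9 of 13 alternatives (adjusted p from 0.0577 with edgeR and RLE factors to 0.338 with DESeq2), among them leaving out any sample other than DMSO replicate 2.

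HSPA2, an HSP70 best known from the testis, showed the largest rise of the tested members with all 6 samples. It was at 334, 514 and 302 adjusted reads in DMSO and at 635, 569 and 671 in pladienolide B. No treated sample fell into the DMSO range, although DMSO replicate 2 was again the highest of its group, and the log2 fold change was 0.74 (SE 0.14, adjusted p = 3e-04 by limma), or 0.97 without that sample. Few reads fell on HSPA6, a strictly inducible HSP70 that has no mouse counterpart, and on HSPA1L, which lies beside HSPA1A and points away from it. HSPA6 had 10.2, 25.2 and 18 adjusted reads in DMSO and 25, 31.7 and 13 in pladienolide B, and HSPA1L had 32.8, 63.4 and 25.2 in DMSO and 30.2, 36 and 18 in pladienolide B. Neither was called with or without DMSO replicate 2, and 35.3% of the 75-base stretches of HSPA6 also occur in HSPA7.

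**Figure D3:**
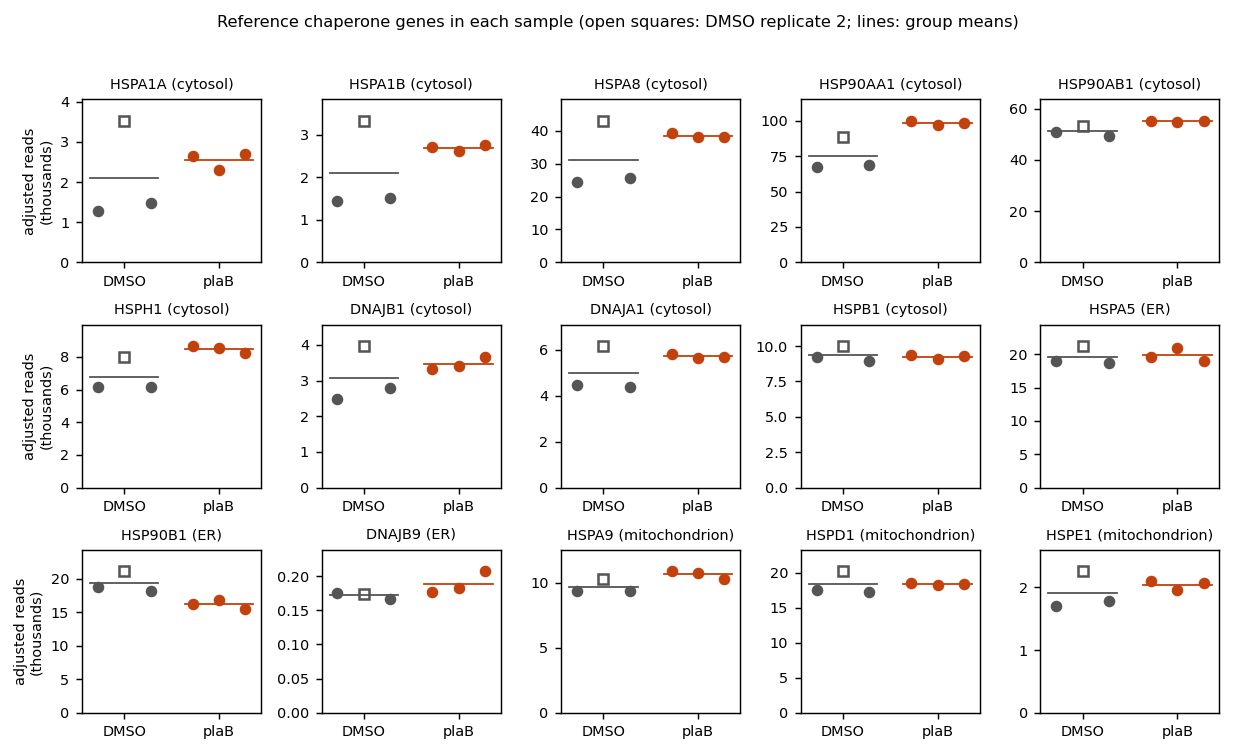
Each panel gives 1 reference member, with the adjusted reads (in units of 1000) of the 3 DMSO and the 3 pladienolide B samples as points, lines at the group means and DMSO replicate 2 as an open square. In HSPA1A, HSPA1B, HSPA8, DNAJB1 and DNAJA1 the open square stands above all treated samples, and in HSP90AA1 and HSPH1 it lies between the other DMSO samples and the treated ones.

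HSF1 is described to bind inverted repeats of the unit GAA, and the promoters of the cytosolic members were searched for them, because these are the genes in which DMSO replicate 2 departed. RefSeq promoter sequences of the GRCh38.p14 build were found for 63 members with 82 start sites, and the 250 bases before each start were read on both strands. An array of 3 adjoining units, GAA and its inverse TTC in alternation with any 2 bases between neighbours, was present in 0.441% of all 35116 promoters and in 6 of the 82 member promoters, those of HSPA8, HSPA6, HSP90AA1, HSP90AB1, DNAJB6 and HSPD1. The shorter array of 2 units, GAANNTTC or TTCNNGAA with N any base, which every array of 3 also holds, was present in 11.6% of all promoters, in 18 of 54 cytosolic and nuclear, in 2 of 14 mitochondrial and in 0 of 14 ER member promoters. The stretches below are those of 5 genes that departed and of both cytosolic HSP90 genes, read 5′ to 3′ on the strand of the gene, with HSE units in capitals. They lie at chr6:31815412-31815469 (+), chr6:31827608-31827665 (+), chr11:123062154-123062216 (-), chr1:161524441-161524503 (+), chr19:14518412-14518469 (-), chr14:102087095-102087157 (-) and chr6:44247806-44247868 (+), in the order shown.
HSPA1A: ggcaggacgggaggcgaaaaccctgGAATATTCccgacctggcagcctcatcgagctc
HSPA1B: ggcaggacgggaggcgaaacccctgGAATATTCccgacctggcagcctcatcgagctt
HSPA8: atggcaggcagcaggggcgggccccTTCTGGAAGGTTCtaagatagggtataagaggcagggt
HSPA6: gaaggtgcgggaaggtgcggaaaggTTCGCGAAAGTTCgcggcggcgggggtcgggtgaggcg
DNAJB1: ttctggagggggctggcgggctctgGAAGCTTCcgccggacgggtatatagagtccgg
HSP90AA1: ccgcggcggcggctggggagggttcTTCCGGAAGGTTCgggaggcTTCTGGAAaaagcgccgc
HSP90AB1: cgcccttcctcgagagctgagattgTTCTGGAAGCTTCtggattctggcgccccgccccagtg
The arrays shown begin 106 bases before the start in HSPA1A, 105 in HSPA1B, 55 in HSPA8 and 74 in HSPA6. The HSPA1A stretch read on the other strand is also the promoter stretch of HSPA1L, because both genes start from the same region. HSPA8 has the start shown as its only start in the RefSeq table, whereas HSP90AA1 has 2 starts and DNAJB1 and HSP90AB1 have 3 each. A match shows only that the letters are present.

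Members with and without such an array differed in how DMSO replicate 2 stood. Of the 17 tested members with an array of at least 2 units, 7 were at least 0.5 higher in DMSO replicate 2, and their median deviation was 0.48 on the log2 scale, with a range from -0.25 to 1.36. Of the 38 tested members with a promoter but no array, 1 was at least 0.5 higher, and their median deviation was 0.06. That gene was HSPA2. With pladienolide B the median log2 fold change was 0.11 with an array of at least 2 units and 0.06 without one. By adjusted p, 4 of the 17 and 12 of the 38 were higher, against 22.4% of all tested genes. When DMSO replicate 2 was left out the medians were 0.14 and 0.09. Then 9 of the 17 and 13 of the 38 were higher, against 23.1% of all genes. For the 6 members with an array of 3 units, all tested, the median was 0.24, against 0.04 for the other 49. Here 4 of the 6 and 12 of the 49 were higher with all samples. Leaving out DMSO replicate 2 gave medians of 0.34 and 0.07, and 5 of the 6 and 17 of the 49 were higher. These are descriptions of a search made after the values were known, and no test was run on them. HSPA1A, HSPA1B and HSPA1L share sequence or a promoter and are not separate observations. HSPA6, HSPA1L and DNAJB7, which have an array and were at least 0.5 higher in DMSO replicate 2, had few reads.

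**Figure D4:**
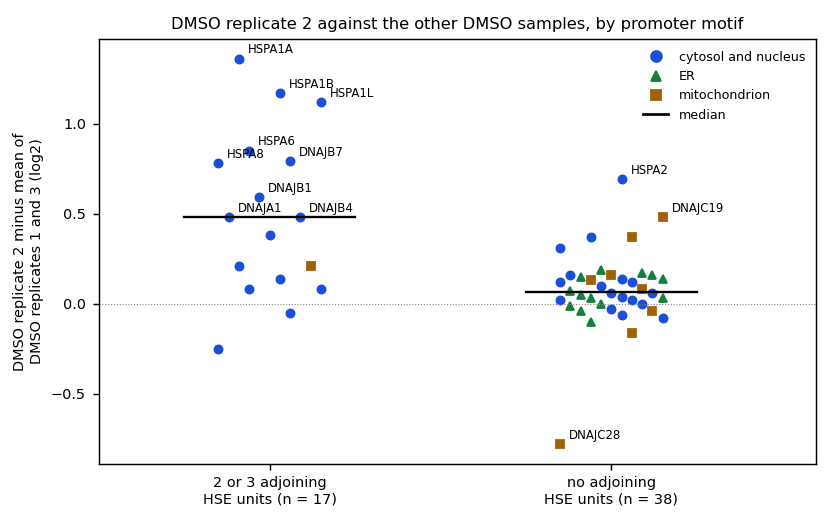
Points give, for the 55 tested members with a promoter, how far DMSO replicate 2 stood above the mean of DMSO replicates 1 and 3 (log2), for genes with and without at least 2 adjoining HSE units in the 250 bases before a start, and lines are medians. The points above 0.5 are HSPA1A, HSPA1B, HSPA1L, HSPA6, HSPA8, DNAJB7 and DNAJB1 in the class with units and HSPA2 in the other.

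The cytosolic HSP90 genes were the most abundant members. Both were called higher, where 22.4% of all tested genes were, HSP90AB1 by a small difference. HSP90AA1, the inducible form, was at 936 ± 135 (SD, n = 3) RPKM in DMSO and 1260 ± 16.8 in pladienolide B. Its samples read 67609, 88875 and 68651 adjusted reads in DMSO and 100182, 96887 and 98491 in pladienolide B, so every treated sample exceeded every DMSO sample, DMSO replicate 2 included. The log2 fold change was 0.40 (SE 0.08, adjusted p = 2.94e-04 by limma), or 0.53 without DMSO replicate 2. HSP90AB1, the constitutive form, read 50956, 53127 and 49396 adjusted reads in DMSO and 55307, 54965 and 55126 in pladienolide B. All treated samples lay above the DMSO range and the rise was small, 0.11 (SE 0.04, adjusted p = 0.043 by limma) on the log2 scale. Its call was lost under 8 of 13 alternatives (adjusted p from 0.0765 to 0.202), among them leaving out any sample other than DMSO replicate 2.

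All 3 HSP110 genes, whose products exchange the nucleotide of HSP70, were called, where 47.6% of all tested genes were, and not in 1 direction. HSPH1 was at 6133, 7964 and 6150 adjusted reads in DMSO and at 8665, 8516 and 8224 in pladienolide B, with no overlap. Its log2 fold change was 0.34 (SE 0.07, adjusted p = 9.62e-04 by limma), or 0.46 without DMSO replicate 2, and the call was lost with no variance trend (adjusted p = 0.0619). HSPA4 rose by 0.36 (SE 0.04, adjusted p = 3.02e-06 by limma), hardly touched by DMSO replicate 2 (0.40 without it). HSPA4L fell by 0.28 on the log2 scale (SE 0.05, adjusted p = 4.28e-04 by limma).

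Of the J-domain proteins that serve cytosolic HSP70, DNAJB1 and DNAJA1 followed the arrangement of HSPA1A. DNAJB1, the HSP40 induced together with HSP70, was at 2490, 3968 and 2780 adjusted reads in DMSO and at 3332, 3394 and 3654 in pladienolide B. DNAJA1 was at 4467, 6175 and 4371 in DMSO and at 5812, 5659 and 5680 in pladienolide B. In both genes the treated samples lay above DMSO replicates 1 and 3 and below replicate 2, and the log2 fold changes were 0.20 (SE 0.11, adjusted p = 0.149) and 0.21 (SE 0.09, adjusted p = 0.0569) by limma. Without DMSO replicate 2 they were 0.39 (SE 0.05, adjusted p = 1.54e-06 by limma) and 0.37 (SE 0.03, adjusted p = 3.36e-08 by limma).

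DNAJA2, a constitutive partner of HSC70, rose by 0.35 (SE 0.04, adjusted p = 4.86e-06 by limma), with 3267, 3514 and 3306 adjusted reads in DMSO and 4291, 4272 and 4245 in pladienolide B. DNAJB6, which holds back protein aggregation, rose by 0.12 (SE 0.04, adjusted p = 0.03 by limma) and DNAJB5 by 0.20 (SE 0.07, adjusted p = 0.0284 by limma). Under 7 and 4 of 13 alternatives, respectively, these calls were lost, in both genes without DMSO replicate 1 or 3 or pladienolide B replicate 1 or 3. Of the 75-base stretches of DNAJB6, 15.4% also occur in other genes. DNAJB4, which also had its highest value in DMSO replicate 2, was at 2357, 3307 and 2388 adjusted reads in DMSO and at 2331, 2196 and 2203 in pladienolide B. It was called lower with all samples (-0.24, SE 0.09, adjusted p = 0.0356 by limma) but not without DMSO replicate 2 (-0.08, adjusted p = 0.137 by limma), without pladienolide B replicate 2 or 3, with DESeq2 or with no variance trend. DNAJB2, a neuronal J-domain protein, fell by 0.24 on the log2 scale with all samples (adjusted p = 0.00231 by limma) and by 0.26 without that replicate.

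HSPA14, a ribosome-bound HSP70 that helps nascent chains to fold, rose whether or not DMSO replicate 2 was included. It was at 775, 902 and 823 adjusted reads in DMSO and at 1217, 1212 and 1155 in pladienolide B. The treated samples were all above the DMSO samples by more than the range of either group, and the log2 fold change was 0.52 (SE 0.06, adjusted p = 3.54e-06 by limma), or 0.58 without DMSO replicate 2. In its canonical transcript 14.5% of the 75-base stretches also occur in MSANTD7. DNAJC2, the J-domain protein of the same ribosome-bound pair, had a log2 fold change of -0.07 (SE 0.06, adjusted p = 0.389 by limma).

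Of the 11 tested cytosolic and nuclear DNAJC genes, many of which serve 1 defined process, 1 rose and 3 fell, or 36.4% called against 47.6% of all tested genes. DNAJC13, of endosome sorting, rose by 0.11 (SE 0.04, adjusted p = 0.0369 by limma), a call lost under 8 of 13 alternatives (adjusted p from 0.052 to 0.152), among them leaving out any sample other than DMSO replicate 2. DNAJC21, of ribosome maturation, fell by 0.29 on the log2 scale (SE 0.05, adjusted p = 1.01e-04 by limma), and DNAJC6, the clathrin uncoating factor auxilin, fell by 0.24 (SE 0.06, adjusted p = 0.00176 by limma). DNAJC9, a histone chaperone, fell by 0.21 (SE 0.05, adjusted p = 0.00107 by limma), although 73.8% of its 75-base stretches also occur in other genes, FAM149B1 above all. DNAJC8 and DNAJC17, which act in splicing, had log2 fold changes of 0.09 (SE 0.05, adjusted p = 0.134) and -0.14 (SE 0.08, adjusted p = 0.161) by limma.

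Small heat shock proteins hold unfolded proteins without ATP. Of 4 tested genes with an HSPB symbol 2 fell, where 25.2% of all tested genes were lower, and 2 were not called. HSPB1, or HSP27, the abundant one at 487 ± 21.8 (SD, n = 3) RPKM in DMSO, read 9202, 10008 and 8949 adjusted reads in DMSO and 9353, 9080 and 9294 in pladienolide B. The groups overlapped, and the log2 fold change was -0.02 (SE 0.04, adjusted p = 0.73 by limma). HSPB6 fell by 0.43 on the log2 scale (SE 0.17, adjusted p = 0.0455 by limma) at a DMSO level under 100 adjusted reads, a call lost under 8 of 13 alternatives (adjusted p from 0.0612 to 0.189), among them leaving out any sample other than DMSO replicate 2. Of the 75-base stretches of HSPB6, 37.1% also occur in another gene. HSPB11, included by its symbol and known in cilia as IFT25, fell by 0.38 (SE 0.08, adjusted p = 6.59e-04 by limma). Whether its product acts as a chaperone was not examined here. HSPB2, at -0.12 (SE 0.09, adjusted p = 0.274 by limma), shares 84.4% of its 75-base stretches with other genes.

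Of the 15 ER members, all tested, 4 rose, where 22.4% of all tested genes were higher, and 3 fell, where 25.2% were lower. Their 46.7% called is close to the 47.6% of all tested genes. HSPA5, or BiP, the ER HSP70 that senses and answers unfolded protein, was at 18981, 21243 and 18658 adjusted reads in DMSO and at 19649, 20999 and 18937 in pladienolide B. The groups overlapped throughout, with a log2 fold change of 0.02 (SE 0.05, adjusted p = 0.8 by limma). HSP90B1, or GRP94, the ER HSP90, was at 18710, 21133 and 18236 in DMSO and at 16212, 16788 and 15562 in pladienolide B. Every treated sample was below every DMSO sample, and HSP90B1 fell by 0.26 on the log2 scale (SE 0.05, adjusted p = 5.53e-04 by limma), or by 0.19 without DMSO replicate 2.

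HSPA5 and HSP90B1 were also the 2 members whose promoters hold the ER stress element on either strand, CCAAT and CCACG with any 9 bases between them, a motif present in 0.074% of all promoters. The stretches are printed as above with the element in capitals, the HSP90B1 one in reverse orientation, from chr9:125241366-125241434 (-) for HSPA5 and chr12:103930296-103930364 (+) for HSP90B1. In HSP90B1 the copy nearest to the start is shown.
HSPA5: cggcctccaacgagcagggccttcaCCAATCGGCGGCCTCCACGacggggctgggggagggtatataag
HSP90B1: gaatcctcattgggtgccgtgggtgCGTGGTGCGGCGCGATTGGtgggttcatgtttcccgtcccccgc

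DNAJC10, or ERdj5, a J-domain protein that reduces disulfide bonds of proteins bound for degradation, fell most among the called members. It was at 3671, 4245 and 3928 adjusted reads in DMSO and at 2540, 2760 and 2384 in pladienolide B. The treated samples kept 64.9% of the DMSO mean, without overlap, and the log2 fold change was -0.62 (SE 0.06, adjusted p = 2.07e-07 by limma). DNAJB11, or ERdj3, the cofactor that brings unfolded chains to BiP, rose by 0.34 (SE 0.06, adjusted p = 2.44e-04 by limma). Of its 75-base stretches 24.1% also occur in another gene.

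DNAJC22, an ER-assigned membrane protein with few reads, rose from 177, 144 and 115 adjusted reads in DMSO to 216, 201 and 246 in pladienolide B. All treated samples exceeded all DMSO samples, and the log2 fold change was 0.62 (SE 0.14, adjusted p = 0.00197 by limma). DNAJB9, or ERdj4, a target of the IRE1 and XBP1 branch of the unfolded protein response, read 175, 174 and 166 adjusted reads in DMSO and 177, 183 and 207 in pladienolide B. Its groups did not overlap, but the difference was small, with a log2 fold change of 0.13 (SE 0.11, adjusted p = 0.348 by limma). DNAJB14 and DNAJC25 rose by 0.15 and 0.23 with all samples, calls that were lost without DMSO replicate 2 and under 6 and 9 of 13 alternatives in all. The ER HSP70 HSPA13 fell by 0.13 on the log2 scale (SE 0.04, adjusted p = 0.016 by limma), a call lost with no variance trend and without DMSO replicate 3 or pladienolide B replicate 3.

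**Figure D5:**
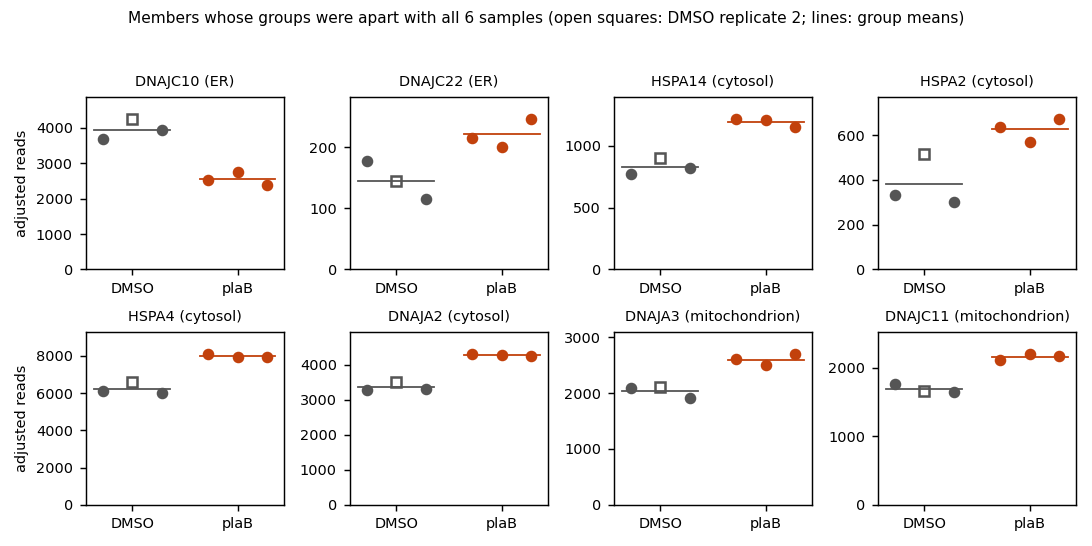
Points are the adjusted reads of the 3 DMSO and the 3 pladienolide B samples for 8 called members, with lines at the group means and DMSO replicate 2 as an open square. The treated samples of DNAJC10 lie at 2384 to 2760, all below the DMSO samples, and those of the other 7 genes lie above them.

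Of the 9 tested mitochondrial members 3 rose, where 22.4% of all tested genes were higher, and 6 were not called. Without DMSO replicate 2 the count that rose was 5, where 23.1% of all genes were higher. HSPA9, or mortalin, the HSP70 that pulls proteins through the inner membrane, was at 9363, 10262 and 9384 adjusted reads in DMSO and at 10885, 10785 and 10313 in pladienolide B. The groups were apart by a narrow margin, and the rise was 0.14 (SE 0.04, adjusted p = 0.0138 by limma). The call was lost with no variance trend (adjusted p = 0.1) and without DMSO replicate 1 or 3 or pladienolide B replicate 1 or 2 (0.0525 to 0.0733). DNAJA3, its J-domain partner, rose by 0.35 (SE 0.05, adjusted p = 2.54e-05 by limma), and DNAJC11, a protein of the cristae, by 0.35 (SE 0.05, adjusted p = 1.45e-05 by limma), though 42.9% of the 75-base stretches of DNAJC11 also occur in THAP3.

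HSPD1 and HSPE1, the HSP60 barrel and its HSP10 lid, start beside each other on chromosome 2 and point in opposite directions. HSPD1 was at 17575, 20251 and 17320 adjusted reads in DMSO and at 18569, 18311 and 18486 in pladienolide B, and HSPE1 at 1707, 2256 and 1782 in DMSO and at 2101, 1957 and 2066 in pladienolide B. In both, the treated samples lay above DMSO replicates 1 and 3 and below replicate 2. The log2 fold changes were 0.01 (SE 0.05, adjusted p = 0.899) and 0.10 (SE 0.08, adjusted p = 0.29) by limma, and 0.08 (SE 0.03, adjusted p = 0.0252) and 0.23 (SE 0.05, adjusted p = 5.25e-04) without DMSO replicate 2. Reads of HSPE1 are hard to place, since 40.4% of its 75-base stretches occur elsewhere, chiefly in the readthrough gene HSPE1-MOB4. DNAJC19, of the import motor, had a log2 fold change of -0.16 (SE 0.11, adjusted p = 0.267 by limma) and again its highest DMSO value in replicate 2.

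Some chaperone genes have no introns, so their transcripts need no splicing. Among the tested members 6 genes have a canonical transcript of 1 exon, HSPA1A, HSPA1B, HSPA2, HSPA6, DNAJB7 and DNAJC30. The deposited position of HSPA2, 64535905 to 64543237 on chromosome 14, is longer than its canonical transcript of 2497 bases. Whether all its counted reads come from transcripts without introns is therefore not known. With all samples only HSPA2 was called, where 47.6% of all tested genes were. Without DMSO replicate 2 HSPA1A, HSPA1B and HSPA2 were called, where 48.2% of these genes were. DNAJB7, at fewer than 60 adjusted reads per sample, had a log2 fold change of -0.63 (SE 0.30, adjusted p = 0.093 by limma), and DNAJC30 one of -0.03 (SE 0.10, adjusted p = 0.809 by limma). HSPA14 and DNAJC10, which were called in opposite directions, have 14 and 24 exons.

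The 10 members that did not pass the filter were DNAJB3, DNAJB8, DNAJB13, DNAJC12, DNAJC15, HSPA7, HSPB3, HSPB7, HSPB8 and HSPB9. None had more than 13 reads in any sample, and no difference between groups could be judged at that depth.

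The regulators and partners outside the chosen symbols were counted from fixed lists. Of 99 related genes tested, 30 rose and 26 fell, with a median log2 fold change of 0.04, so 56.6% were called. Without DMSO replicate 2, 42 rose and 25 fell, so 67.7% were called. In each list the counts from all samples stand beside 22.4% higher, 25.2% lower and 47.6% called over all tested genes. Counts without DMSO replicate 2 stand beside 48.2% called. Nothing is read from them as particular to a list. In DMSO replicate 2, 1 of the related genes was at least 0.5 higher than the mean of the other DMSO samples. It was UBB, named after its values were seen, at 1.61 times that mean. Its mean over the 3 DMSO samples was only 9.03 adjusted reads. Among the 4 tested heat shock factor genes, HSF1 rose by 0.28 (SE 0.04, adjusted p = 2.43e-05 by limma), HSF2 rose by 0.23 (SE 0.06, adjusted p = 0.00373 by limma), and HSBP1, which binds HSF1 trimers, fell by 0.25 on the log2 scale (SE 0.07, adjusted p = 0.00519 by limma). The HSF1 transcript in DMSO replicate 2 was at 0.976 times the mean of the other DMSO samples.

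Of 31 tested genes on the list of cochaperones and exchange factors, 10 rose and 7 fell (54.8% called against 47.6% of all tested genes). Leaving out DMSO replicate 2 gave 13 and 6 (61.3% against 48.2%). CHORDC1, an HSP90 cochaperone, fell by 1.08 on the log2 scale (SE 0.08, adjusted p = 7.67e-09 by limma), from 3607 to 1691 adjusted reads, a larger change than that of any member. PPID, the HSP90-bound cyclophilin 40, rose by 0.59 (SE 0.06, adjusted p = 3.73e-07 by limma) and BAG3, which links HSP70 to autophagy, by 0.58 (SE 0.08, adjusted p = 2.26e-05 by limma). In DMSO replicate 2 BAG3 stood at 1.35 and CHORDC1 at 1.3 times the mean of the other DMSO samples. Without that sample their log2 fold changes were 0.72 and -0.96.

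Of 9 tested genes on the list of family members under other names, which also held CLPB, 2 rose and 4 fell (66.7% called against 47.6%). These counts were the same without DMSO replicate 2. HYOU1, the HSP110 of the ER, fell by 0.83 on the log2 scale (SE 0.05, adjusted p = 1.84e-09 by limma), TRAP1, the mitochondrial HSP90, by 0.74 (SE 0.04, adjusted p = 1.07e-09 by limma) and the mitochondrial disaggregase CLPB by 0.24 (SE 0.05, adjusted p = 0.00114 by limma). Of 15 genes on the list for the cytosolic chaperonin TRiC and prefoldin, 6 rose and 2 fell (53.3% called against 47.6%). Leaving out DMSO replicate 2 gave 10 and 2 (80% against 48.2%). PFDN1 was at 0.30, PFDN2 at 0.27 and the prefoldin-like URI1 at -0.27.

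Of 20 ER folding genes 4 rose and 8 fell (60% called against 47.6%). With DMSO replicate 2 left out, 6 rose and 8 fell (70% against 48.2%). ERN1, which encodes the sensor IRE1, rose by 0.84 (SE 0.09, adjusted p = 1.57e-06 by limma), DERL2, of ER-associated degradation, rose by 0.60 (SE 0.07, adjusted p = 1.77e-06 by limma), and XBP1, the factor whose mRNA IRE1 cuts, fell by 0.59 on the log2 scale (SE 0.08, adjusted p = 7.44e-06 by limma). Of 13 mitochondrial import and protease genes 4 rose and 3 fell (53.8% called against 47.6%). With DMSO replicate 2 left out, 5 rose and 3 fell (61.5% against 48.2%). LONP1, the matrix protease, fell by 1.22 (SE 0.05, adjusted p = 1.19e-11 by limma), and the import receptors TOMM40 and TOMM70 each rose by 0.22. Of 10 HSF1 targets outside the chosen symbols 3 rose and 2 fell (50% called against 47.6%). FKBP4 and HMOX1 rose by 0.36 and 0.35, and CHORDC1 fell. FKBP4, CHORDC1 and the TRiC subunit TCP1 were also counted in lists above. With DMSO replicate 2 left out, 6 of the 10 rose and 2 fell (80% against 48.2%).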

How the data were processed

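RNA sequencing (polyA RNA) of OVCAR8 cells was analysed in 6 samples. The submitters' processing notes name HISAT2, HTSeq 0.12.4, DESeq2 and the build hg19, whereas the study's methods name hg38, and 71 of 72 member positions overlapped RefSeq genes of GRCh38.p14. Whether reads were assigned by strand, and how reads with several matches were treated, is not given in the sources used here. The signal values the authors deposited are reads adjusted to a common library size, and inverting that adjustment brought 99.901% of the 96432 values that were at least 10 to less than 0.02 from a whole read. The deposited log2 fold change, p-value and q-value columns were not used. limma 3.58.1 with a variance trend was run on log2(value + 1), two-sided, with Benjamini-Hochberg adjustment over 16178 genes that passed edgeR 4.0.16 filterByExpr (minimum 10 adjusted reads, 15 in total). The scale understates changes of genes with few reads. Alternatives were a pseudocount of 0.1, no filter, no variance trend, edgeR's quasi-likelihood test (TMM or RLE factors) and DESeq2 1.42.0 on recovered reads, a replicate block, and leaving out each sample. The scripts were tested on simulated data. Values in every sample are given for called members with a log2 change of at least 0.5 in size and for 15 reference members, plus some chosen after their values were seen (HSPA1L, HSPA6, DNAJA2, DNAJB4); related lists give up to 3 called genes with the largest change, and HSF1. Members and lists were chosen with earlier results of these data known. Transcript lengths, exons and 75-base stretches are from GENCODE v44 canonical transcripts (71 members), promoters from RefSeq (63 members).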

Additional observations from a re-analysis of the deposited data

How the results depend on the processing

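Of the 507 values of 39 named members under the alternatives, 411 kept their direction and their side of the threshold, 82 lost the call, 8 gained one and 6 changed sign. Of the 30 called members 17 were called under all 13 alternatives, and the lost calls were in HSPA8, HSP90AB1, HSPH1, HSPA12A, HSPB6, DNAJB4, DNAJB5, DNAJB6, DNAJC13, DNAJB14, DNAJC25, HSPA13 and HSPA9. The sign changes were in members close to 0, HSPB1 (-0.05 to 0.03 when single samples were left out), HSPA5 (-0.02 to 0.08) and HSPD1 (-0.03 to 0.08). The count of called members, 30, was 30 with the pseudocount of 0.1, 24 with no filter, 20 with no variance trend, 30 and 29 with edgeR's quasi-likelihood test (TMM and RLE factors), 25 with DESeq2 and 20 to 34 when single samples were left out. Called ER members were 4 with no variance trend and 5 to 6 with single samples left out, cytosolic and nuclear ones 12 to 23, and mitochondrial ones 2 to 5, with 5 without DMSO replicate 2. The lowest counts came without DMSO replicate 3 or pladienolide B replicate 3, where 20 members were called, and 13 and 12 cytosolic and nuclear ones. The cause was not tested, beyond the smaller number of samples. HSPA1A ran from 0.16 to 0.89, HSPA1B from 0.27 to 0.87, HSPA8 from 0.21 to 0.62 and DNAJB1 from 0.06 to 0.39 on the log2 scale with single samples left out, all highest without DMSO replicate 2. Same-numbered samples did not deviate together (correlations from -0.02 to 0), and none correlated best with its own number. The values thus show no pairing by number, but whether same-numbered samples were handled together is not given. With the replicate block 25 members and 7349 genes were called. HSPA6, HSPA1L and DNAJB7, which had few reads, were not called, and the smallest difference detectable at such levels was not worked out.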
